A study of Homo sapiens with 30 samples.

Results

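The subject of these data is a set of 10 genes of semaphorin signalling in A375 melanoma cells. It holds 6 ligands (SEMA3A, SEMA3B, SEMA3C, SEMA4C, SEMA5A and SEMA6A), the co-receptors NRP1 and NRP2, and the receptors PLXNA1 and PLXNB2. They were taken by symbol from 26364 listed genes, and all 10 passed the filter on low counts. The files listed 33 genes named as semaphorins, neuropilins or plexins, antisense genes included.

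Semaphorins are secreted or membrane-anchored guidance proteins, first studied for how they steer growing axons. They bind plexins, whose intracellular part acts on small GTPases and so on the cytoskeleton and on integrin adhesion. Most secreted semaphorins need a neuropilin beside the plexin, and neuropilins also bind growth factors of the VEGF family. Melanoma cells descend from the neural crest, a migratory lineage in which this pathway guides movement.

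A375 is an established human melanoma line, sorted here by flow cytometry for surface integrin β4 (ITGB4), an adhesion receptor. The labels gave 10 groups of 3 libraries of polyadenylated RNA. Parental negative and Parental positive were sorted from the original population without migration. Top 10 negative and Top 10 positive were cells that had not crossed a fibronectin-coated membrane with 5 µm pores in 10 rounds. Bottom 10 negative and Bottom 10 positive had crossed such a membrane in each of 10 rounds. Bottom 5 negative had crossed, and Top 5 positive had failed to cross, in 5 rounds. Presorted negative and Presorted positive were parental cells sorted first, which then crossed in 4 and 5 rounds. All groups came from 1 cell line, and each library is called by its group and its labelled replicate number. The series text describes 5 rounds, and the titles were followed.

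Gene counts per library ran from 14258919 to 29134945. SOX10, a neural crest transcription factor, stood at 287 to 1460 CPM (counts scaled to library size by TMM, edgeR's trimmed mean of M-values) and PRAME, a melanoma antigen, at 114 to 216 CPM, while PMEL and MLANA, proteins of pigment granules, reached at most 1.68 and 0.54 CPM. ITGB4 had a higher mean in the positive than in the negative group of each of the 4 sorted pairs, by log2 differences of 0.52 to 1.97, and none of them passed the test (edgeR adjusted p from 0.999 to 1). Its parental values were 24.6, 33.7 and 25.1 CPM in the negative and 168, 96.7 and 35.2 CPM in the positive libraries, without overlap. In Top 10, Bottom 10 and Presorted the libraries of the 2 sorts overlapped. Presorted negative ran from 27.2 to 322 CPM and Presorted positive from 103 to 366 CPM. On the second principal component, 6 libraries stood apart: Top 10 negative 1, Bottom 10 positive 3, Presorted negative 2, Bottom 5 negative 2, and Top 5 positive 1 and 3. Reads matching more than 1 place made up 9.16 to 13.3% of these 6 libraries and 7.80 to 9.21% of the other 24.

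Set side by side per kilobase of annotated exons, the members covered a wide span. SEMA3B, a secreted semaphorin known as a candidate tumour suppressor, had the highest median of the 31 family genes compared, at 44.7 CPM per kilobase, and PLXNB2 was the next at 25.8. SEMA6B at 23.5 and SEMA7A at 15.9, which are not members, came before the next member, SEMA3C at 14.8. Among the members SEMA4C was then at 10.6, PLXNA1 at 9.11, NRP2 at 7.77, NRP1 at 7.08 and SEMA3A at 5.83 CPM per kilobase. SEMA6A at 0.42 and SEMA5A at 0.11 CPM per kilobase ranked 25 and 27 of 31. The ranges over the 30 libraries of the middle members overlapped, so that SEMA3C to SEMA3A form no clear order. In bulk RNA, fewer cells with a transcript and less transcript per cell cannot be told apart.

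**Figure D1:**
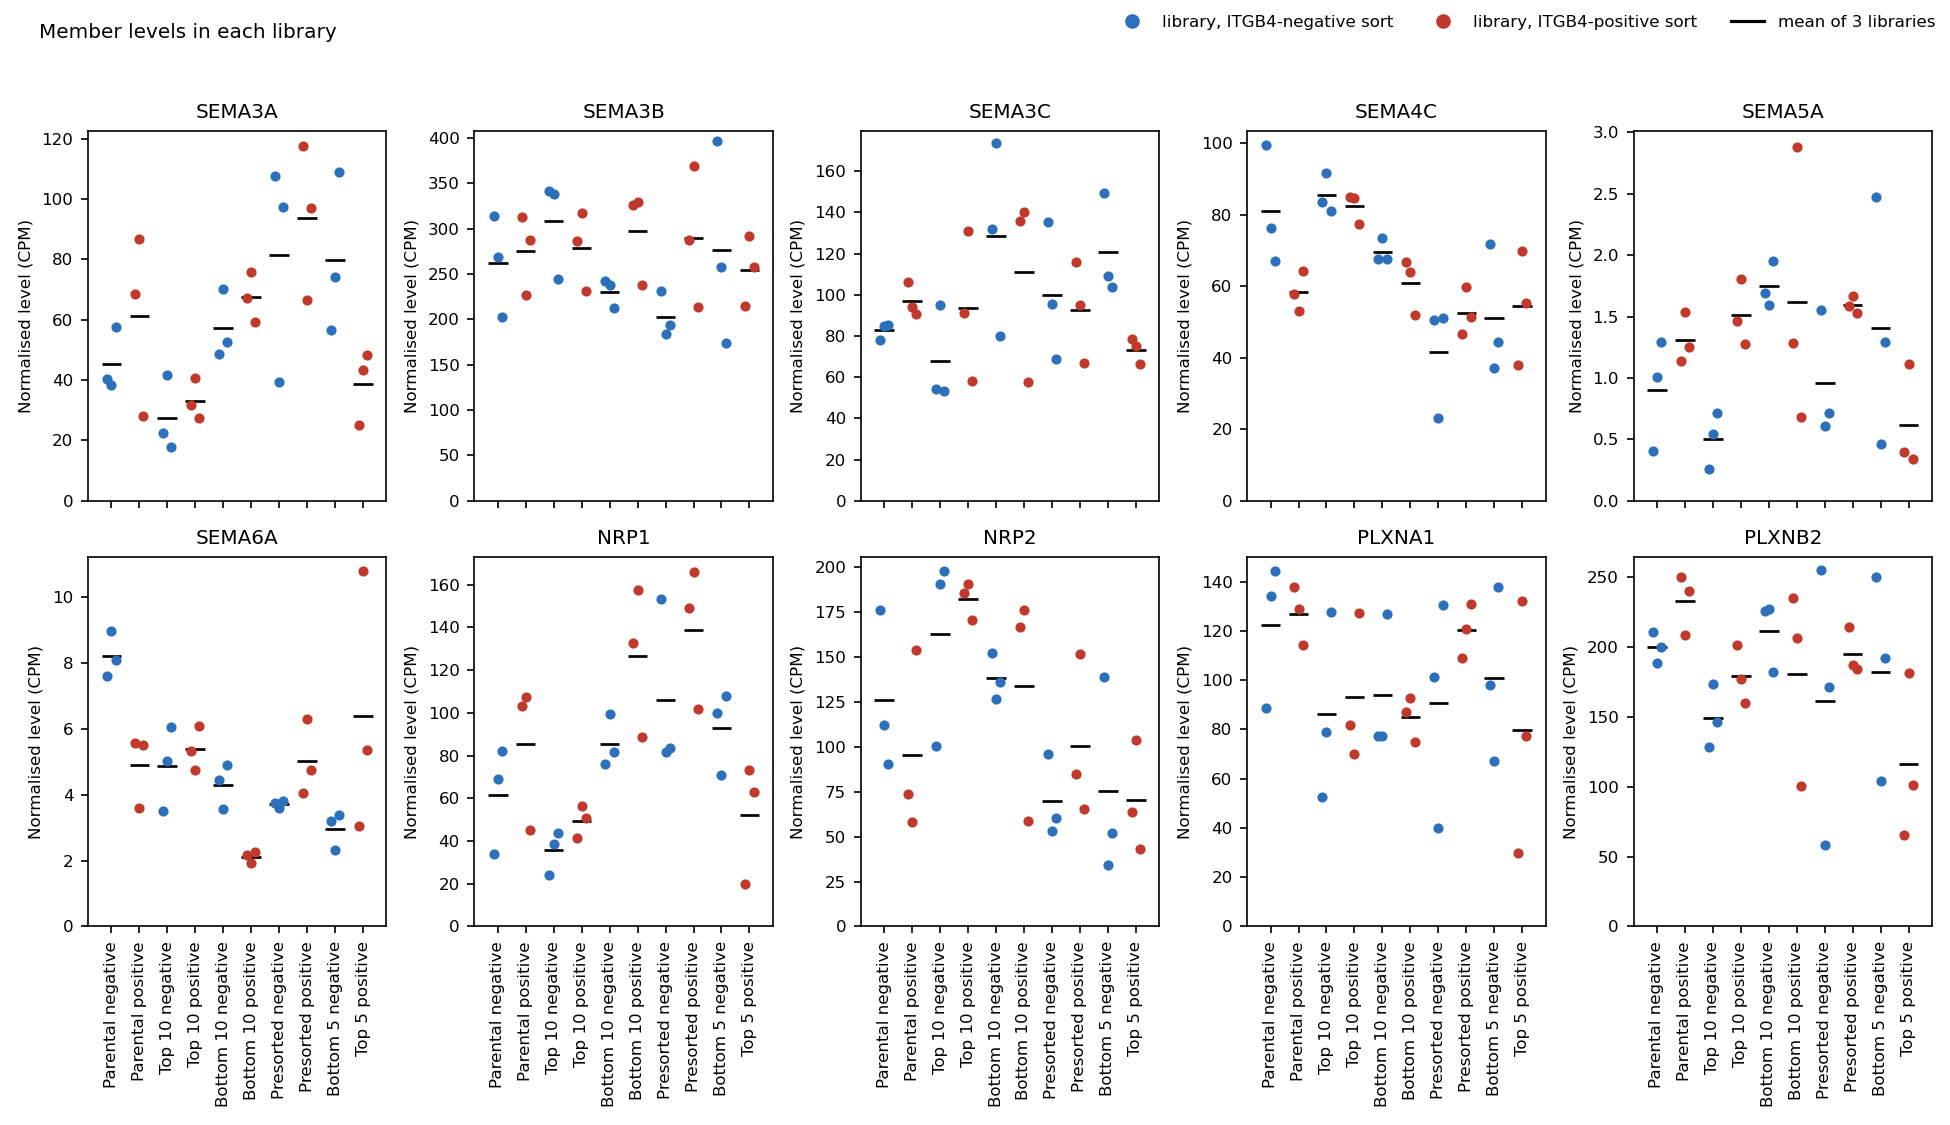
Normalised level in CPM of each of the 10 genes (vertical axes, each starting at 0) in the 10 groups (horizontal axes). Points are libraries, blue for negative and red for positive sorts, and bars are means of 3. NRP1 and SEMA3A are lowest in both Top 10 groups and Top 5 positive, and SEMA6A is highest in Parental negative, at 7.60 to 8.99 CPM, apart from 1 Top 5 positive library at 10.8 CPM.

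The comparison of cells that crossed with cells that did not, after 10 rounds, asked which genes differ with passage through narrow pores. NRP1, which binds SEMA3A and VEGF, was 2.48-fold higher in Bottom 10 than in Top 10 cells over both sorts, and SEMA3A, a secreted ligand that repels growing axons, was 2.06-fold higher. In negative cells, NRP1 was 24.1, 38.8 and 43.9 CPM in Top 10 and 76.0, 99.3 and 81.5 CPM in Bottom 10. In positive cells it was 41.3, 56.4 and 50.6 CPM in Top 10 and 133, 158 and 88.8 CPM in Bottom 10. The groups did not overlap in either sort: every Bottom 10 library was above every Top 10 library. The log2 fold change over both sorts was 1.31 (SE 0.29, 95% interval 0.72 to 1.91, edgeR adjusted p = 0.00712). The call held with each of the 12 libraries left out in turn (adjusted p from 0.00656 to 0.0288) and without the 6 libraries that stood apart (1.29, adjusted p = 0.00836).

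SEMA3A had the same arrangement at lower levels. Its values in negative cells were 22.5, 41.6 and 17.7 CPM in Top 10 and 48.6, 70.1 and 52.7 CPM in Bottom 10. In positive cells they were 31.6, 40.6 and 27.5 CPM in Top 10 and 67.1, 75.9 and 59.2 CPM in Bottom 10. Again no Top 10 library reached a Bottom 10 library of its sort. The log2 fold change over both sorts was 1.04 (SE 0.28, 95% interval 0.47 to 1.62, edgeR adjusted p = 0.0312). This call held in 5 of 12 fits with a library left out (adjusted p up to 0.0952, lost without Top 10 negative 1 or 3, Top 10 positive 1 or 3, Bottom 10 negative 2 or Bottom 10 positive 1 or 2), and was lost without the 6 libraries that stood apart (1.01, adjusted p = 0.0619).

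Of the 10 members, 2 were thus called over both sorts, both higher. Of all 15381 tested genes 3.97% were called in that comparison and 2.5% were called higher. The members were chosen with earlier results of these data known, so these shares are given only side by side. Within negative cells alone, where 1.33% of genes were called, no member was: edgeR adjusted p was 0.167 for NRP1 (log2 fold change 1.27) and 0.275 for SEMA3A (1.07), DESeq2 called 0, and 4 members had an unadjusted p below 0.05, as did 9.04% of genes. The median log2 fold change of the 10 members over both sorts was 0.12, against 0.01 for all tested genes.

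Endothelial cells also carry NRP1. Of 6 endothelial markers 4 were tested and 1 was called, TIE1, which was higher in Bottom 10 cells (7.30 against 1.33 CPM, log2 fold change 2.54, edgeR adjusted p = 0.00152). The summed endothelial markers were 9.11 to 22.1 CPM in Top 10 and 14.8 to 23.2 CPM in Bottom 10 libraries. EGFL7 was at 7.23 to 30.3 CPM over the 30 libraries. In the same libraries VWF reached at most 2.58 CPM, PECAM1 0.31, CDH5 0.43 and CLDN5 0.86 CPM. ITGB4 itself was higher in Bottom 10 cells over both sorts, by 2.45 on the log2 scale (SE 0.63, edgeR adjusted p = 0.0246). AXL, a receptor kinase of undifferentiated melanoma cells, was higher as well, by 1.10 (adjusted p = 0.0306). AXL was the one called of 8 tested melanoma and neural crest markers, whose sums were 1413 to 2175 CPM in Top 10 and 1188 to 2362 CPM in Bottom 10 libraries. The part of these genes in the differences of NRP1 and SEMA3A was not tested.

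SEMA6A, a transmembrane ligand of PLXNA2 and PLXNA4, ran the other way in positive cells. It was 5.33, 4.76 and 6.10 CPM in Top 10 positive and 2.18, 1.92 and 2.26 CPM in Bottom 10 positive libraries, with counts of 33 to 39 in the latter. The 2 groups were far apart relative to their spread, with a log2 fold change of -1.35 (SE 0.32, 95% interval -2.02 to -0.68, edgeR adjusted p = 0.0423). It was the only member among the 0.943% of genes called there, and its call was lost with any of the 6 libraries left out (adjusted p from 0.089 to 0.23) and kept without the 6 that stood apart (-1.41, adjusted p = 0.00769).

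In negative cells SEMA6A was 3.51, 5.04 and 6.06 CPM in Top 10 and 4.47, 3.58 and 4.90 CPM in Bottom 10. Those libraries overlapped, and the log2 fold change was -0.17 (95% interval -0.82 to 0.47). The difference between the sorts in this contrast was -1.17 (95% interval -2.10 to -0.25) and did not pass the test over all genes (edgeR adjusted p = 0.998), where no gene did. Reads from SEMA6A and its antisense neighbour SEMA6A-AS1, which share 268 exon bases, cannot be told apart without a strand setting, which was not given. SEMA6A-AS1 itself had 0 to 7 counts.

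**Figure D2:**
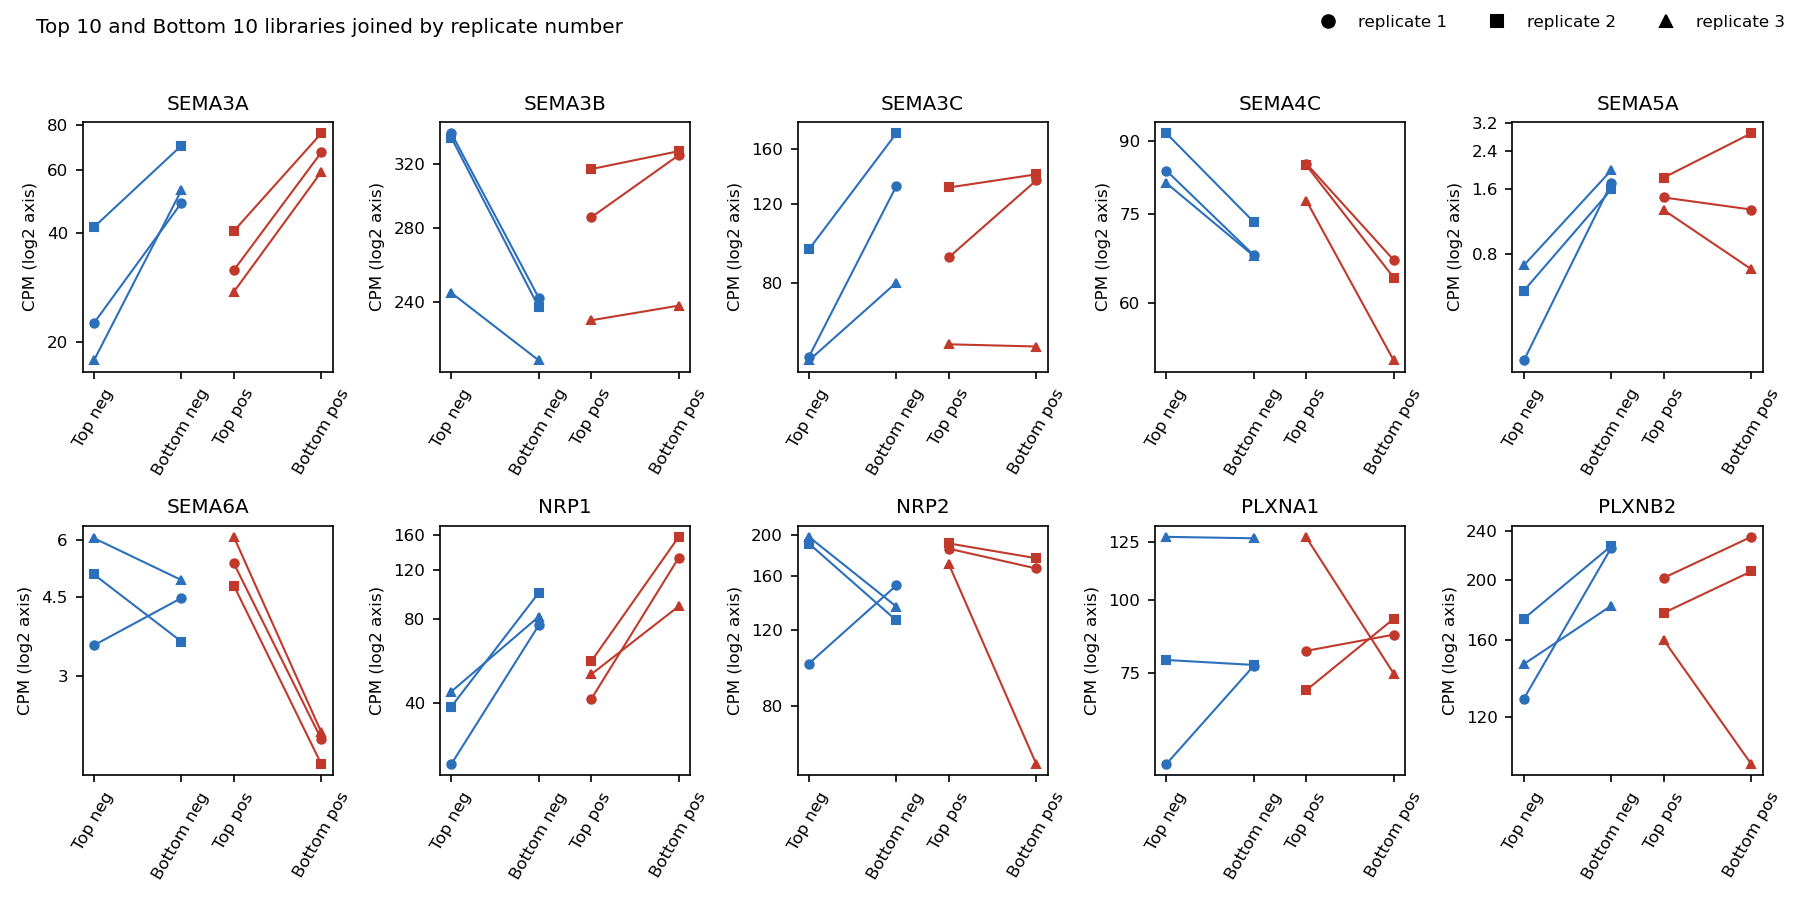
Levels in CPM (vertical axes, log2 scale) of the 10 genes in Top 10 and Bottom 10 libraries, blue for negative and red for positive sorts. Lines join libraries with the same replicate number: all 6 rise for SEMA3A and NRP1, and all 6 descend for SEMA4C.

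Libraries with the same replicate number deviated together from their group means in both crossing comparisons and both ten-round sort comparisons, so a fit of those 4 groups with the replicate number as a block is given beside these results. It called 2177 of 14587 genes over both sorts (14.9%), 7.67% higher and 7.25% lower. NRP1 (log2 fold change 1.32, edgeR adjusted p = 0.000321) and SEMA3A (1.08, adjusted p = 0.00019) were called there, and both were also called in each sort alone (adjusted p from 0.00245 to 0.00566), with 9.29% of genes called in negative and 7.75% in positive cells. SEMA3C, SEMA4C and SEMA6A were added over both sorts, at -0.76 and an adjusted p of 0.00411 for SEMA6A. Without the libraries numbered 2 that fit kept SEMA3A over both sorts (1.21, adjusted p = 0.00752) and lost NRP1 (1.26, adjusted p = 0.0505), SEMA3C, SEMA4C and SEMA6A (adjusted p from 0.137 to 0.237). Bottom 10 exceeded the Top 10 library of the same number in 6 of 6 pairs for NRP1, by 0.81 to 1.69, and in 6 of 6 for SEMA3A, by 0.75 to 1.57 on the log2 scale.

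SEMA3C, a secreted ligand that binds both neuropilins, was 54.5, 95.1 and 53.5 CPM in Top 10 negative and 132, 173 and 80.0 CPM in Bottom 10 negative. In positive cells it was 91.2, 131 and 58.1 CPM in Top 10 and 136, 140 and 57.5 CPM in Bottom 10. Replicate 3 was the lowest library of each of these 4 groups. SEMA3C was not called without the block over both sorts (0.59, edgeR adjusted p = 0.231), and with it the value was 0.56 (adjusted p = 0.0159).

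SEMA4C, a membrane-bound ligand of PLXNB2, was 83.5, 91.7 and 81.0 CPM in Top 10 negative and 67.6, 73.5 and 67.5 CPM in Bottom 10 negative. In positive cells it was 85.0, 84.6 and 77.5 CPM in Top 10 and 66.8, 63.9 and 52.0 CPM in Bottom 10. Groups did not overlap in either sort, and Bottom 10 was the lower in 6 of 6 same-numbered pairs, by 0.26 to 0.58 on the log2 scale. The log2 fold change over both sorts was -0.37 (SE 0.18, edgeR adjusted p = 0.406) without the block and -0.37 (SE 0.07, adjusted p = 0.00578) with it.

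SEMA3C and SEMA4C, called over both sorts only with the block and in opposite directions, both had a promoter in the RefSeq table used here. Their sequences on GRCh38.p14, from 250 bases before to 50 after an annotated start, are SEMA3C at chr7:80919002-80919301 on the minus strand and SEMA4C at chr2:96870031-96870330 on the minus strand. Capitals mark GGGCGG, the core of the SP1 site, on either strand.
SEMA3C: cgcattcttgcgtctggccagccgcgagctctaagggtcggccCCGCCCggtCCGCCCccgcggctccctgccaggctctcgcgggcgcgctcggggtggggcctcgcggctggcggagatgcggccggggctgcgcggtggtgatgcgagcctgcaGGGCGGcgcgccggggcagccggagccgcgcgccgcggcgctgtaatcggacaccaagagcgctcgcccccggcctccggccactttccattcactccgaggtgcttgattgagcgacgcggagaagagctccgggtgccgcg
SEMA4C: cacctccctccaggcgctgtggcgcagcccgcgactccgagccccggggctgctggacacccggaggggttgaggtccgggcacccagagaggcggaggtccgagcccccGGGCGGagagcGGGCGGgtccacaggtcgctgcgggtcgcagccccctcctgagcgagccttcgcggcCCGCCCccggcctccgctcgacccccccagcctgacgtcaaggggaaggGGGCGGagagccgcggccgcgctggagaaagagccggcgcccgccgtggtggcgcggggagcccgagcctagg
The SEMA3C promoter held 3 matches and the SEMA4C promoter 4, without overlap, and GGGCGG occurred in 45.0% of 35116 promoters of this length. Neither window held TGANTCA (AP-1, in 7.71% of promoters), GGAATG (TEAD, 14.03%) or TCATGTG (MITF, 2.92%). Their GC contents were 75.7 and 78%, against a median of 58.7%. A second RefSeq start of SEMA3C lies at chr7:80922340-80922639, and the counts do not say which start was used. That second window had a GC content of 36% and held no GGGCGG, so the description above covers only the printed window. The table held 7 of the 10 members.

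SEMA5A, a transmembrane semaphorin with thrombospondin repeats, was detected with 5 to 57 counts a library. In negative cells it was 0.26, 0.54 and 0.71 CPM in Top 10 and 1.70, 1.59 and 1.95 CPM in Bottom 10, which did not overlap. The log2 fold change of 1.78 (SE 0.58, edgeR adjusted p = 0.17) did not pass the test, and with the block it was 1.81 (adjusted p = 0.0379). In positive cells it was 1.46, 1.80 and 1.28 CPM in Top 10 and 1.29, 2.88 and 0.68 CPM in Bottom 10, which overlapped (log2 fold change 0.11). SEMA3B was 341, 338 and 245 CPM in Top 10 negative and 242, 237 and 212 CPM in Bottom 10 negative. It was called lower there with the block (-0.40, edgeR adjusted p = 0.037) but not without it (-0.42, adjusted p = 0.754). Positive libraries of SEMA3B were at 286, 317 and 231 CPM in Top 10 and 326, 329 and 238 CPM in Bottom 10. These overlapped (log2 fold change 0.10), and the value over both sorts was -0.16 (edgeR adjusted p = 0.942).

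Of the member receptors, only NRP1 was called. NRP2, the neuropilin favoured by SEMA3F and VEGFC, was 100, 191 and 198 CPM in Top 10 negative, 152, 126 and 136 CPM in Bottom 10 negative, 185, 191 and 171 CPM in Top 10 positive and 167, 176 and 58.6 CPM in Bottom 10 positive. Its log2 fold change over both sorts was -0.34 (95% interval -1.04 to 0.36), and Bottom 10 was the higher in 1 of 6 same-numbered pairs. PLXNA1, a signalling partner of neuropilins, was at -0.01 over both sorts with an interval of -0.62 to 0.61. PLXNB2 was at 0.26 (-0.31 to 0.82), and Bottom 10 was the higher in 5 of 6 same-numbered pairs. In negative cells it was 129, 173 and 146 CPM in Top 10 and 226, 227 and 182 CPM in Bottom 10, without overlap (0.50, edgeR adjusted p = 0.896). In positive cells it was 202, 177 and 160 CPM in Top 10 and 235, 207 and 101 CPM in Bottom 10, which overlapped through replicate 3, one of the 6 libraries that stood apart. Neither plexin was called with the block (edgeR adjusted p = 0.921 and 0.42).

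**Figure D3:**
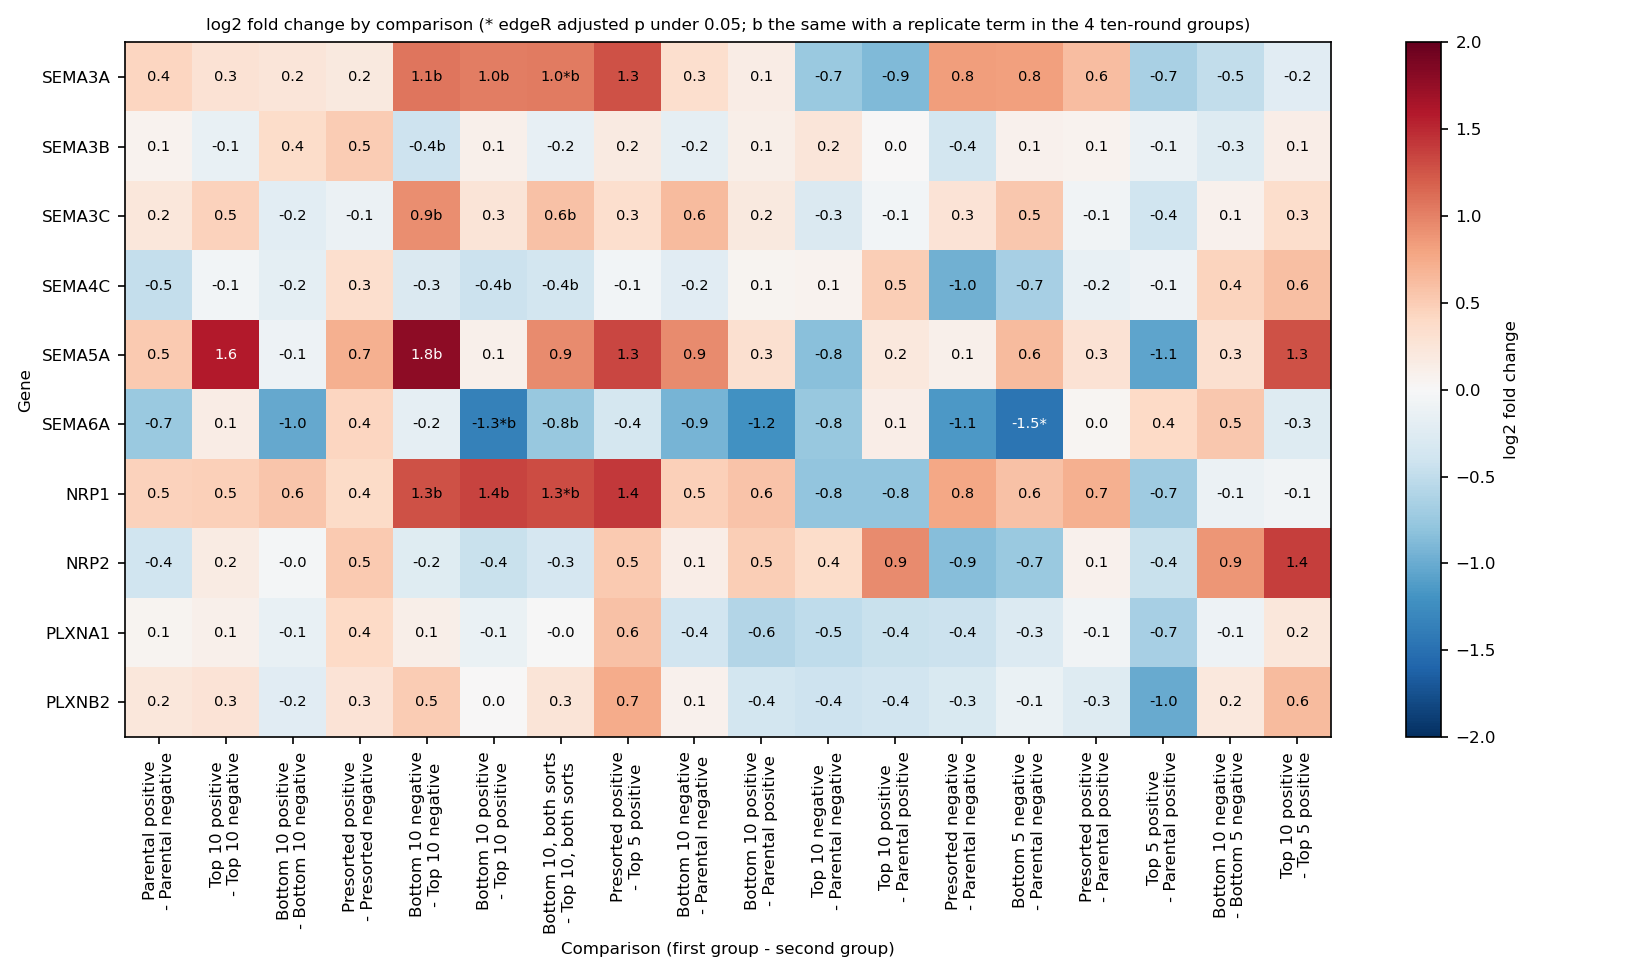
Fitted log2 fold change of each gene (rows) in 18 comparisons (columns, first group minus second), with red for higher and blue for lower in the first group. Asterisks mark an edgeR adjusted p under 0.05 over all genes and b marks the same with the replicate block in the 4 ten-round groups. Asterisks stand at 4 cells, NRP1 and SEMA3A over both sorts and SEMA6A in the positive crossing and in Bottom 5 negative against Parental.

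A contrast of cells at 5 rounds set Presorted positive, sorted first and then crossing, against Top 5 positive, which failed to cross. NRP1 was 149, 166 and 101.5 CPM in the former and 19.7, 73.2 and 63.1 CPM in the latter, without overlap. SEMA3A was 118, 66.5 and 97.0 CPM against 25.1, 43.2 and 48.3 CPM, again without overlap. Neither passed the edgeR test, at log2 fold changes of 1.41 (SE 0.41, adjusted p = 0.0675) and 1.27 (SE 0.40, adjusted p = 0.0902), while 2.05% of genes did. DESeq2 called both (adjusted p = 0.0191 and 0.0354) and 5.21% of genes. Top 5 positive 1 and 3 were among the 6 libraries that stood apart. The 2 groups also differ in when they were sorted.

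Against Parental cells, SEMA6A was the member with the most differences. Its parental negative level, 7.60, 8.99 and 8.11 CPM, was above that of every library of Bottom 5 negative, at 3.22, 2.32 and 3.39 CPM. The log2 fold change was -1.47 (SE 0.32, 95% interval -2.13 to -0.81, edgeR adjusted p = 0.027), a 2.77-fold lower level. Of all genes 0.858% were called there and 0.592% were called lower. The call held in 1 of 6 fits with a library left out (adjusted p up to 0.187, lost without Parental negative 1 or 2 or any Bottom 5 negative library) and without the 6 libraries that stood apart (-1.33, adjusted p = 0.0178).

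Presorted negative cells had SEMA6A at 3.74, 3.59 and 3.82 CPM, below all Parental negative libraries (-1.14, edgeR adjusted p = 0.0586). SEMA4C in those cells was 50.5, 23.2 and 51.0 CPM, against 99.6, 76.4 and 67.0 CPM in Parental negative (-0.96, adjusted p = 0.0511). These values missed the threshold in edgeR, with 2% of genes called, and passed it in DESeq2 (adjusted p = 0.0119 for SEMA6A and 0.00933 for SEMA4C), with 4.71% called. Without the 6 libraries that stood apart SEMA6A was at -1.13 (edgeR adjusted p = 0.0241). In Presorted positive and Top 5 positive against Parental positive edgeR and DESeq2 called 0 members, with 0.039 and 0.163% of genes called by edgeR. An unadjusted p below 0.05 was found there for 0 members and for 1, PLXNB2, beside 3.01 and 17.4% of genes. The low SEMA4C value of 23.2 CPM belongs to Presorted negative 2, one of the 6 that stood apart.

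After 10 rounds edgeR called no member against Parental cells in Bottom 10 negative, Bottom 10 positive, Top 10 negative or Top 10 positive, where it called 0.325, 0.247, 0.0455 and 0.384% of genes. In each comparison 1 member had an unadjusted p below 0.05, beside 7.64, 8.3, 4.74 and 9.05% of genes. DESeq2 called 1 member, SEMA6A in Bottom 10 positive (-1.23, adjusted p = 0.0369), and 0.754% of genes there. SEMA6A in edgeR was at -0.93 in Bottom 10 negative and at -1.21 in Bottom 10 positive (adjusted p = 0.307 and 0.167). Among cells that had not crossed it was at -0.76 in Top 10 negative and at 0.14 in Top 10 positive (edgeR adjusted p = 0.923 and 0.934). All SEMA6A contrasts of negative cells with Parental cells share the same Parental negative libraries, at a mean of 8.23 CPM, against 4.89 CPM in Parental positive. Whether the lower level in negative cells goes with crossing can therefore not be read from them. For NRP1, Bottom 10 minus Parental was 0.47 in negative and 0.57 in positive cells, and Top 10 minus Parental was -0.80 and -0.79, none of them past the threshold. Since Bottom 10 and Top 10 share the Parental libraries in these contrasts, the values are given only side by side.

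No member was called for the sort itself. In the 4 comparisons of positive with negative cells (Parental, Top 10, Bottom 10 and Presorted) edgeR and DESeq2 called 0 of 40 member tests, and edgeR called 0.0585, 0.013, 0 and 0% of all genes. An unadjusted edgeR p below 0.05 was found for 1, 1, 1 and 0 members, beside 4.45, 1.71, 3.57 and 3.67% of genes. The largest differences were those of SEMA5A in Top 10 (1.58) and SEMA6A in Bottom 10 (-1.02), and neither pair of groups overlapped. SEMA6A was also without overlap in Parental (-0.75, lower in positive cells) and in Presorted (0.44, higher in positive cells). The same held for SEMA4C in Parental (-0.47) and Bottom 10 (-0.19) and SEMA3C in Parental (0.23). How many of all tested genes were without overlap was not counted, so these separations are not read as differences by sort. NRP1 had the higher mean in the positive group of all 4 pairs, by 0.39 to 0.56 on the log2 scale, and the libraries of both groups overlapped in each pair. Parental values were 34.0, 69.0 and 82.2 CPM in negative and 103, 108 and 45.1 CPM in positive cells.

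Nor was a member called for the number of rounds. Bottom negative cells after 10 and after 5 rounds gave 0 member calls in edgeR and DESeq2 (0.117% of genes in edgeR), and 0 members at an unadjusted p below 0.05 beside 7.22% of genes. Top positive cells also gave 0 in both tools (0.0455% of genes), and 3 members at an unadjusted p below 0.05 beside 21.7%. NRP2 had the largest value, 1.38 in Top positive cells (SE 0.49, edgeR adjusted p = 0.173), with 185, 191 and 171 CPM after 10 rounds and 63.6, 104 and 43.0 CPM after 5. Those groups did not overlap, nor did those of SEMA4C (0.60) and SEMA5A (1.27) in Top positive cells or of SEMA6A (0.53) in Bottom negative cells. The share of all genes without overlap was not counted in these comparisons either, so the separations are descriptions. Top 5 positive 1 and 3 were among the 6 libraries that stood apart. In 3 interactions edgeR called no gene and DESeq2 no member. For the crossing effect by sort 2 members, SEMA5A and SEMA6A, had an unadjusted p below 0.05, beside 2.87% of genes, and for the other 2 interactions 0 did.

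Over the 10 group means of log2 CPM, SEMA3A and NRP1 moved together, with a Pearson r of 0.96 and a Spearman rho of 0.94. Without Top 10 negative and Top 10 positive the r was 0.93, and over the 30 libraries with group means removed it was 0.57. ITGB4 had an r of 0.95 with each of the 2 genes over the group means, and 0.92 with NRP1 and 0.90 with SEMA3A without Top 10 negative and Presorted positive. SEMA4C and NRP2 had an r of 0.89, PLXNA1 and PLXNB2 one of 0.86, SEMA3A and SEMA4C one of -0.74, and the neuropilins one of -0.36. All genes of a group share its libraries and their scaling, and several groups share a history, so these values are descriptions.

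**Figure D4:**
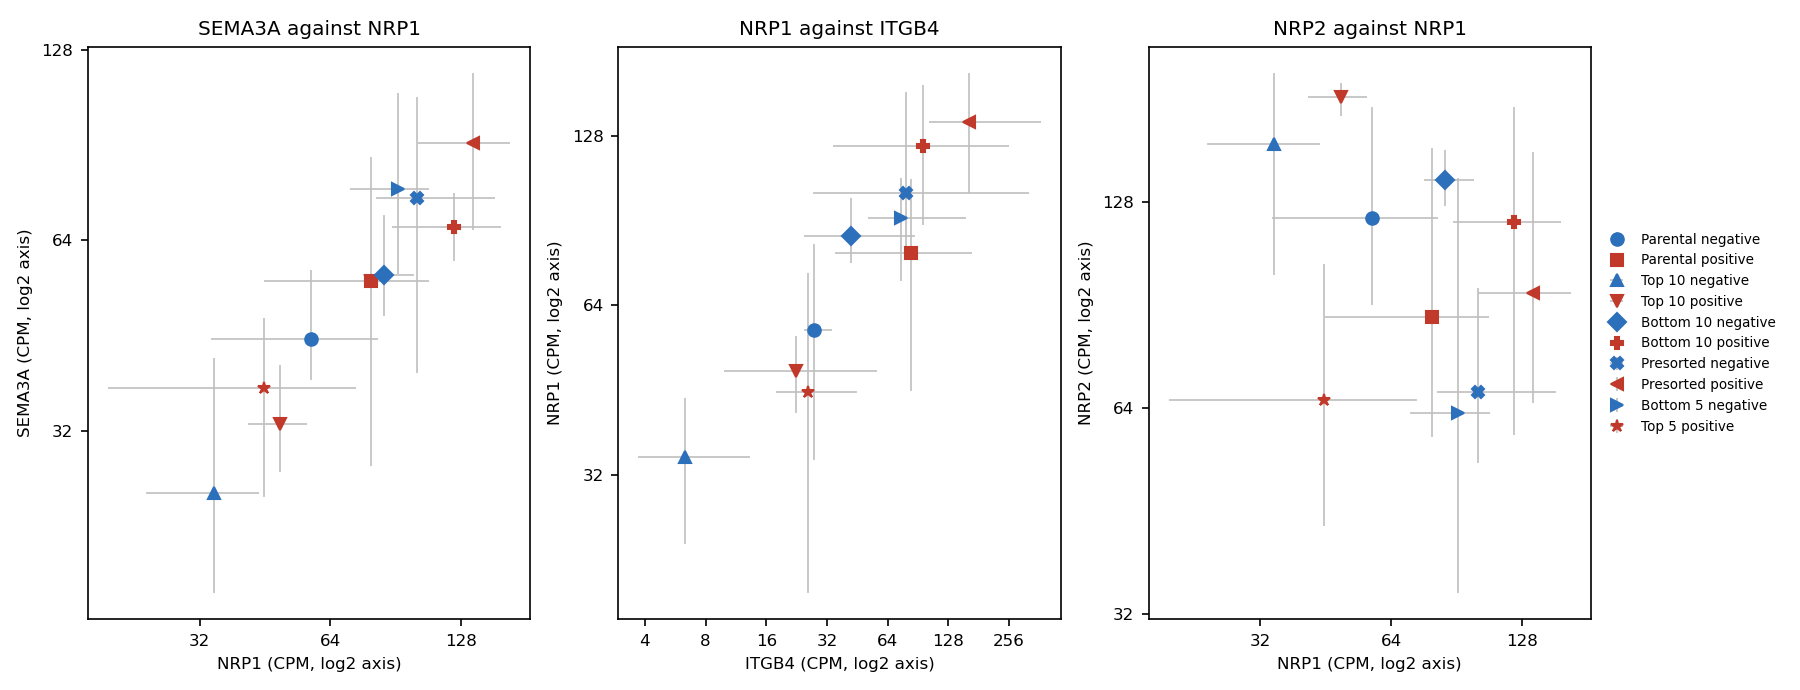
Mean level of each group in CPM on log2 axes for SEMA3A against NRP1, NRP1 against ITGB4 and NRP2 against NRP1. Symbols are groups, blue for negative and red for positive sorts, and grey lines run from the lowest to the highest of 3 libraries. SEMA3A and NRP1 are lowest together in Top 10 negative and highest together in Presorted positive, and NRP2 follows neither.

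The lowest NRP1 mean was 35.6 CPM ± 10.3 (SD, n = 3) in Top 10 negative and the highest 138.8 CPM ± 33.3 (SD, n = 3) in Presorted positive. Between them stood Top 10 positive (49.4 ± 7.63), Top 5 positive (52.0 ± 28.4), Parental negative (61.7 ± 24.9), Parental positive (85.3 ± 34.9), Bottom 10 negative (85.6 ± 12.2), Bottom 5 negative (92.8 ± 19.5), Presorted negative (106 ± 40.8) and Bottom 10 positive (126 ± 34.8). Every pair of neighbours in this order overlapped in its libraries. Within groups the SD of log2 CPM was 0.55 for NRP1 and 0.52 for SEMA3A, from 0.31 for SEMA3B to 0.65 for SEMA5A among the members, against a median of 0.42 over all tested genes. The genes most like NRP1 over the 10 group means were RUNX1 (r = 0.98) and ANPEP (r = 0.98). For SEMA3A LHFP is given (r = 0.99), and for SEMA6A they were GATS and MEIS2 (both r = 0.94), out of 11657 genes compared.

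Other genes of the pathway were counted in the crossing over both sorts, where 2.5% of all tested genes were called higher and 1.47% lower. Of 12 tested other semaphorins 2 were called. SEMA3G fell from 10.5 to 2.91 CPM (log2 fold change -1.85, SE 0.34, edgeR adjusted p = 0.00138, kept in 12 of 12 fits with a library left out). SEMA3F, the main ligand of NRP2, rose by 1.13 (adjusted p = 0.0383, kept in 4 of 12). Of 7 tested other plexins, PLXNA2, a receptor of SEMA6A, rose from 5.76 to 12.7 CPM (1.17, adjusted p = 0.0496, kept in 2 of 12). The medians of these lists were 0.03 for semaphorins and 0.00 for plexins, beside 0.01 for all genes.

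Of 10 tested co-receptors, L1CAM, an adhesion molecule that binds NRP1, was the one called, at 198 CPM in Bottom 10 and 59.3 CPM in Top 10 (1.94, edgeR adjusted p = 0.00449). Of 33 cytoplasmic effectors, GSK3B, a kinase that phosphorylates the collapsin response mediator proteins, was the one called, and fell by 0.84 (adjusted p = 0.00339). Of 7 tested other growth factors that bind neuropilins, 3 were called higher and 0 lower, beside the 2.5 and 1.47% of all genes: PDGFB from 1.00 to 9.99 CPM (3.93, adjusted p = 1.13e-06), VEGFC from 8.28 to 25.6 CPM (1.73, adjusted p = 0.00544) and FGF2 by 0.55 (adjusted p = 0.00488). This list, like the other lists, was chosen with earlier results of these data known. Its count beside those shares is therefore a description and not a test of the list. Of 6 proteases and related genes of semaphorin processing, PCSK5, a proprotein convertase, fell by 1.47 (adjusted p = 0.0044), from 2.83 to 1.13 CPM.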

How the data were processed

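Polyadenylated RNA was sequenced in 30 libraries, and the authors deposited unnormalised read counts by gene symbol, with a file for each library. The submitters' processing notes name STAR, HTSeq, DESeq and hg19. Versions, parameters, the strand setting and the gene models are not given in the sources used here. Reads assigned to no gene (22.1 to 31.8%) were left out of library sizes.

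The filterByExpr function of edgeR (at least 10 counts, total 15) left 15381 genes. The 10 groups were fitted together in edgeR 4.0.16 (quasi-likelihood, TMM factors, R 4.3.3), and p-values were adjusted by Benjamini-Hochberg over these genes (threshold 0.05). "Called" means past that threshold. The SE is the log2 fold change divided by the square root of F. With 3 against 3 libraries an exact permutation p cannot go below 0.1, and p-values cover the spread between these libraries, labelled biological replicates. The share of all genes without overlap between groups was not counted, so a lack of overlap is given only as a description. No 2 libraries of a group were copies (chi-square per degree of freedom at least 12.4).

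The numbers were taken as pairing libraries where same-numbered libraries correlated above 0.1 for all 3 numbers after removal of group means (0.406, 0.629 and 0.692 in the negative and 0.265, 0.573 and 0.547 in the positive crossing). Both ten-round sort comparisons, Presorted sorts and Bottom 5 negative against Parental (0.590, 0.379 and 0.415) also met this, and Bottom 10 positive and Top 10 negative, not compared here, did not (-0.122 for replicate 1). A block in all 10 groups changed no member call between the Presorted sorts or in Bottom 5 negative against Parental. The labels state no pairing. The block was fitted in the 4 ten-round groups (14587 genes). Alternatives were DESeq2 1.42.0, RLE factors, no filter, a block, only the compared groups and leaving out each library. The fit without 6 libraries (second component above 30) and the block with each number left out were added after seeing the data.

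The fit was tested on simulated counts. Over both sorts, 67 of 100 true 2-fold changes and 98 of 100 true 4-fold changes passed, beside 13 false calls. In the negative crossing 32 and 84 did, beside 4 false calls, with 15169 genes tested in each. True changes were given only to genes above a minimum mean level, and the rates were not separated by level. They therefore do not say how often a change of SEMA5A or SEMA6A, the members with the lowest counts, would pass. Simulated counts were drawn independently, without deviations shared by same-numbered libraries and without libraries that stood apart. The rates in the real libraries may therefore differ.

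Members and gene lists were chosen with earlier results of these data known. All members were named. From other lists up to 4 called genes with the smallest p were named, and for each called member the 2 genes with the highest correlation over group means at 5 CPM or more in a group. Exon lengths came from GENCODE 29 by symbol. Some results that these rules would name are not reported here.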

Additional observations from a re-analysis of the deposited data

How the results depend on the processing

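Member calls in the 4 crossing comparisons numbered 3. They were 6 with DESeq2 and 14, in 3 of the comparisons, with the replicate block in the 4 ten-round groups, where the block gave 9, 2 and 15 without replicate 1, 2 and 3. Leaving out single libraries gave 1 to 5 calls: 1 without Top 10 positive 1 or 3, Bottom 10 negative 2 or Bottom 10 positive 1 or 2, and 5 without Top 5 positive 2. Against Parental cells after 10 rounds the 0 calls became 1 with DESeq2, 2 without the 6 libraries that stood apart and 0 to 1 with a library left out. At 4 or 5 rounds the 1 call became 2 with RLE factors, 3 with DESeq2, 3 with the replicate block in all 10 groups, 0 with only the compared groups in the fit and 2 without the 6 libraries. Leaving out single libraries gave 0 to 4 there: 0 without Parental negative 1 or 2 or Bottom 5 negative 3, and 4 without Top 5 positive 2. The sort, number of rounds and interaction comparisons stayed at 0 under the alternatives run. The 25 results of single genes were picked because they were called in the main fit or under an alternative. None of them was reversed in direction under any alternative, which that choice makes likely. Of their values, 318 stayed on the same side of the threshold, including values called in neither fit, 56 lost a call and 46 gained one. These counts therefore do not measure how stable the calls of the main fit are. The causes were not tested. SEMA5A and SEMA6A, with 5 to 57 and 33 to 175 counts, are the members with the lowest counts. Their SDs of log2 CPM within groups were 0.65 and 0.37, against a median of 0.42 over all tested genes.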
